A study of Mus musculus with 12 samples.

Results

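MBNL, CELF and RBFOX proteins bind RNA and decide which exons are kept as heart muscle matures. In myotonic dystrophy type 1 (DM1), RNA with an expanded CUG repeat traps MBNL proteins in nuclear foci, and CELF1, which often acts on the same exons in the opposite direction, becomes more active. RBFOX1 and RBFOX2 act mostly in adult muscle and brain exons, RBM20 keeps exons of titin and other sarcomere and calcium-handling transcripts out, RBM24 promotes muscle exons, and PTBP1 represses exons in many tissues and declines as muscle matures. The genes described here were the 10 that encode these regulators, chosen by name: Mbnl1, Mbnl2, Mbnl3, Celf1, Celf2, Rbfox1, Rbfox2, Rbm20, Rbm24 and Ptbp1, out of 51826 entries in the count table. All 10 passed the filter on low counts in every comparison, Mbnl3 with 2 to 35 counts per library.

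The libraries were 12 poly(A) RNA-Seq libraries from hearts of 6 female FvB mice, 10 weeks old, with an atrial and a ventricular library from each mouse. CUG960 +dox mice (TREDT960I(H)/MHCrtTA(hemi), 3 mice: V119, V120 and V123) carry a doxycycline-responsive transgene of human DMPK exons with 960 interrupted CUG repeats, together with MHCrtTA. MHCrtTA +dox controls (MHCrtTA(hemi), 3 mice: V327, V333 and V334) carry the MHCrtTA transgene alone, so both genotypes had rtTA and doxycycline from postnatal day 1. The rtTA activator is driven by the αMHC promoter and is therefore made in cardiomyocytes, whereas the libraries hold RNA of the whole chamber, so fewer cells of a type and less RNA per cell cannot be told apart. Transgene RNA was not analysed here. Each library had between 116127966 and 160676189 counts. A count sums all isoforms of a gene, so it reports RNA level and not splicing, protein or the trapping of protein in foci.

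The libraries matched their tissue labels. Myl7, the atrial myosin light chain, had 2842 ± 38.3 CPM (counts scaled to a fixed total per library, SD, n = 3) in control atria and 10.8 ± 7.57 CPM in control ventricles, and Myl2, the ventricular light chain, had 18 ± 13.5 CPM in control atria and 9407 ± 1027 CPM in control ventricles. Irx4, a ventricular transcription factor, was at 0.0376 ± 0.0265 CPM in control atria and 24.9 ± 2.07 CPM in control ventricles. The ventricular library of CUG960 mouse V123 stood apart from those of V119 and V120 in some atrial transcripts. It had 55.9 CPM of Myl7 against 0.192 CPM in V119 and 0.304 CPM in V120, which is 1.92% of the mean of CUG960 atria, and 18.5 CPM of Sln, an atrial regulator of the calcium pump, against 0.213 CPM and 0.341 CPM. Myl4, the atrial essential light chain, was at 86.3 CPM against 4.36 CPM and 6.13 CPM, and Dkk3, a secreted protein, at 17.3 CPM against 4.44 CPM and 5.91 CPM. V123 was not the highest of the 3 in the other atrial markers. Bmp10, a growth factor of atrial muscle, was at 0.208 CPM in V123, between 0.0343 CPM in V119 and 0.275 CPM in V120, Nppa was at 151 CPM in V123, between 86.6 CPM and 224 CPM, and Stard10 at 38.6 CPM, between 31.8 CPM and 45.5 CPM. Without V123, the ventricular log2 fold changes of the regulators called were −0.44 for Rbfox1, 0.49 for Rbfox2 and 0.25 for Celf1, and those of Mbnl1, Mbnl2, Mbnl3, Rbm20 and Rbm24 were 0.07, 0.11, −0.22, 0.25 and 0.06. Values without V123 are given further on for some of the other genes. Control ventricles also held atrial transcripts. The atrial markers other than Nppa summed to 78.8, 71.7 and 116 CPM in control ventricles (V327, V333 and V334). In CUG960 ventricles they summed to 41.0, 58.5 and 217 CPM (V119, V120 and V123). Without V123, the CUG960 ventricles thus lay below all control ventricles in this sum, and the source of this difference was not tested.

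Promoter sequences are shown for 4 of the regulators that changed in CUG960 mice, so that a reader can see what lies at their start sites. They are 300 bases long, from 250 bases before to 50 after a RefSeq start, on GRCm38.p6, written 5′ to 3′ on the gene's strand, and RefSeq promoters were matched for 8 of the 10 genes. Capitals mark GC boxes (GGGCGG) and E-boxes (CANNTG) on either strand, and matches may overlap. For Rbfox1 (chr16:7069585-7069884, plus strand) and Celf2 (chr2:6721613-6721912, minus strand), which have several RefSeq starts, the start with the most GENCODE transcripts beginning within 500 bases was taken, 1 of 8 transcripts for Rbfox1 and 6 of 28 for Celf2. The Celf1 window (chr2:90940147-90940446, plus strand) lies at 8 of 14 transcripts and the Ptbp1 window (chr10:79854182-79854481, plus strand) at 10 of 16.
Rbfox1: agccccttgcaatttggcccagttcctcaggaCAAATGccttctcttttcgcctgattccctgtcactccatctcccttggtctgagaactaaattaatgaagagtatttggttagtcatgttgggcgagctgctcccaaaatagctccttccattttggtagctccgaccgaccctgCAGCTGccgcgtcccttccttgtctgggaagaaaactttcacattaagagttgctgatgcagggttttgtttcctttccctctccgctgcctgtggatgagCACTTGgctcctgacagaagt
Celf1: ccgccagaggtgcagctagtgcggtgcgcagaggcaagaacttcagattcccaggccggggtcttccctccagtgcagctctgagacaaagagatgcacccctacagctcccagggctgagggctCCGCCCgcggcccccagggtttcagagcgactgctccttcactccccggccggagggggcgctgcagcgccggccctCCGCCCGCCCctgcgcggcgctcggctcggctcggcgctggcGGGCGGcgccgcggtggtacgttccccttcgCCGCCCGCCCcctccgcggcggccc
Celf2: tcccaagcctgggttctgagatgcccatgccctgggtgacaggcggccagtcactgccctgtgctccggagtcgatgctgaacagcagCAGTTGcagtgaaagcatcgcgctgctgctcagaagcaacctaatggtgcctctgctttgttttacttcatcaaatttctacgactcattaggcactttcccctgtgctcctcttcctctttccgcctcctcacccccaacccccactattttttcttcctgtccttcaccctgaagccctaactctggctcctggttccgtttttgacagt
Ptbp1: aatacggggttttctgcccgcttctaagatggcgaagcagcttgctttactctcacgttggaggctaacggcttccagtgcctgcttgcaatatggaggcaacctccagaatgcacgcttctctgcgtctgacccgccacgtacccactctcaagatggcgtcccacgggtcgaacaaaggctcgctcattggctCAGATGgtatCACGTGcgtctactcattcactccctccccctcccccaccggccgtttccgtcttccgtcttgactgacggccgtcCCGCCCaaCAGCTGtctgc

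The Celf1 promoter was the most GC-rich of these 4, at 74.3% G or C with 34 CpG and 6 GC boxes. Ptbp1 had 58.3% with 22 CpG, 1 GC box and 3 E-boxes. Celf2 had 54.0% with 8 CpG and 1 E-box, and Rbfox1 had 50% with 7 CpG and 3 E-boxes. Of 32851 mouse promoters of the same length, 35.7% held a GC box and 72.3% an E-box. A TATA box (TATAAA, in 13.6% of promoters) and the MEF2 site (in 3.19%) were also searched on both strands, and neither was in these 4 windows. The matches are a description of letters only.

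Levels between genes were compared per kilobase of the longest coding transcript in GENCODE M21. In control ventricles, Rbm24 was at 57.0 ± 1.35 CPM per kilobase (SD, n = 3), Mbnl2 at 47.7 ± 3.70, Rbm20 at 40.2 ± 6.33 and Mbnl1 at 25.7 ± 1.59. Celf1 followed at 15.7 ± 0.822, Rbfox2 at 13.5 ± 0.952, Ptbp1 at 11 ± 1.26, Rbfox1 at 7.44 ± 0.220 and Celf2 at 6.19 ± 0.570 CPM per kilobase. Mbnl3 was at 0.0439 ± 0.0123 CPM per kilobase and came last in all 4 groups. Within control ventricles only Mbnl2 and Rbm20 overlapped as neighbors in this order. The order was close to the same in control atria, where Rbm20 stood at 54.0 ± 7.72 CPM per kilobase and overlapped Rbm24 at 57.8 ± 4.64, and where Celf1 at 19.2 ± 0.912 overlapped Rbfox2 at 18.2 ± 0.426. This order depends on the length used. Per kilobase of all annotated exons of a gene, control ventricles had 50.4 CPM of Rbm24, 28.9 of Rbm20, 18.1 of Mbnl2, 14.6 of Celf1, 11.5 of Rbfox2, 7.75 of Mbnl1, 7.34 of Ptbp1, 5.17 of Rbfox1, 2.12 of Celf2 and 0.0233 of Mbnl3. Rbm20 then stood above Mbnl2, and Mbnl1 stood below Celf1 and Rbfox2, so the order of these genes is not settled by the counts. In CUG960 ventricles Rbfox1 and Celf2 were at 5.49 ± 0.331 and 5.26 ± 0.191 CPM per kilobase of the longest coding transcript and overlapped, but were at 3.82 and 1.80 CPM per kilobase of all exons.

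**Figure D1:**
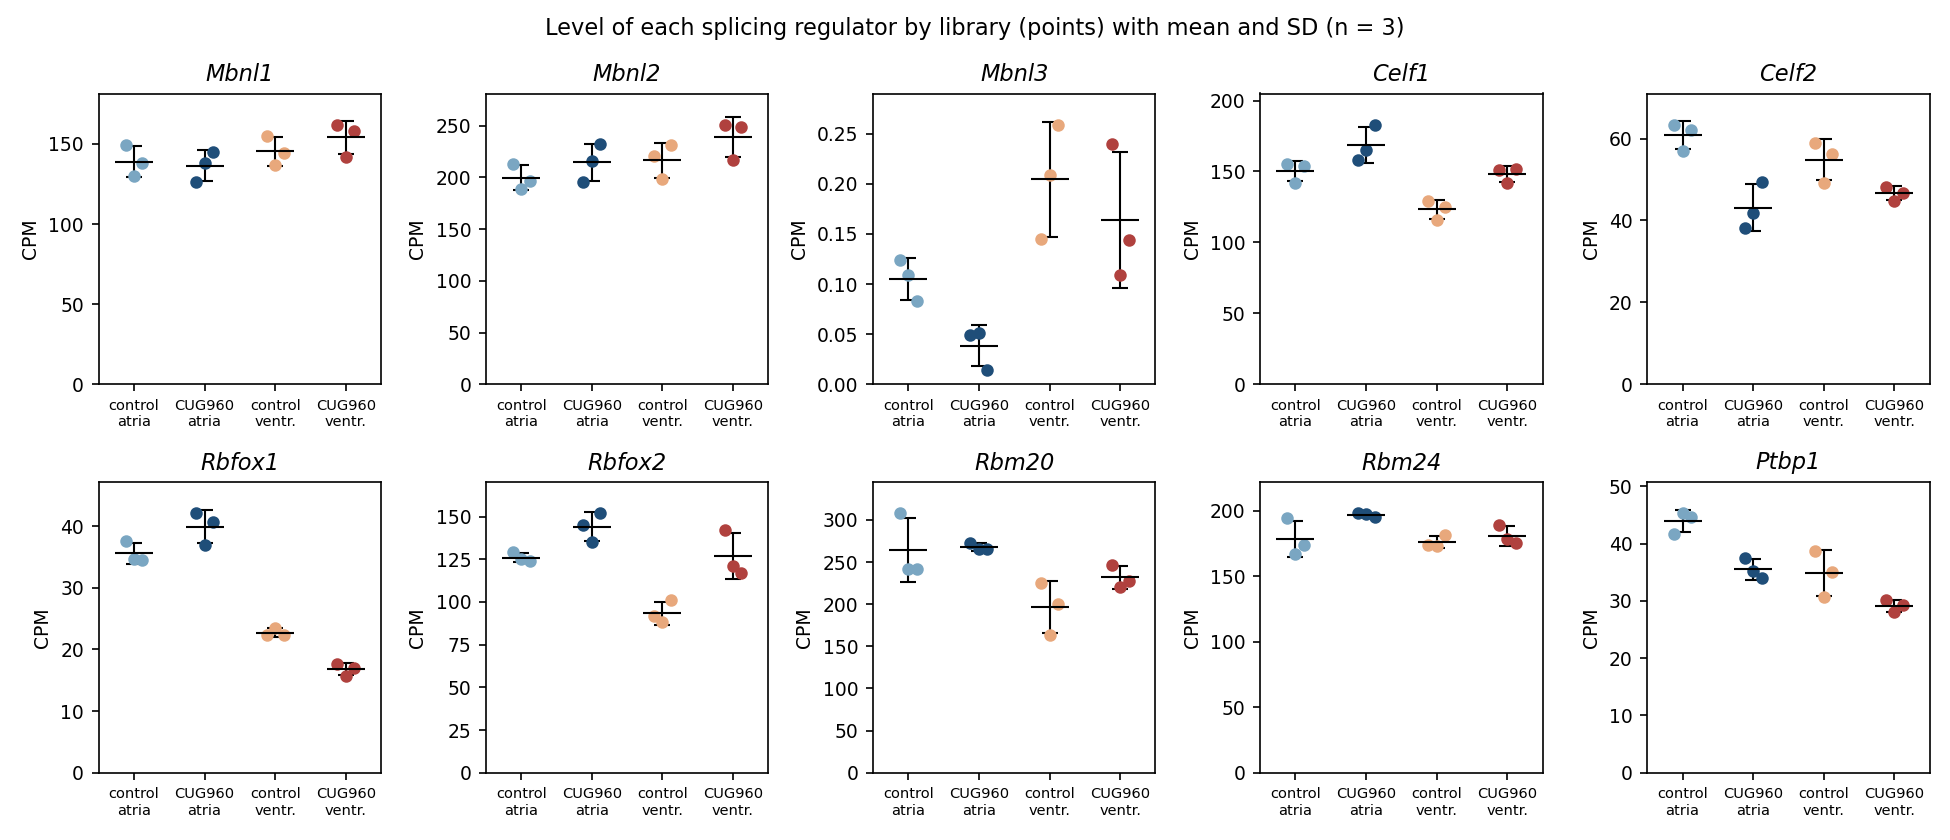
Level of each regulator in CPM (y axis, starting at 0, a separate scale per gene) in the 12 libraries (points, in the mouse order V327, V333, V334 for controls and V119, V120, V123 for CUG960), with the mean and SD of 3 mice in each group. Rbfox1 in CUG960 ventricles lies below all other groups, Celf2 and Ptbp1 lie lower in CUG960 than in control atria, and Mbnl1 and Mbnl2 overlap between genotypes in both chambers.

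The first question was whether the RNA levels of these regulators differed between the genotypes in each chamber. In atria, Celf2 and Ptbp1 fell, and the other 8 regulators did not pass an adjusted P value of 0.05 (edgeR quasi-likelihood test, Benjamini-Hochberg adjustment over 17650 genes). In ventricles, Rbfox1 fell, Rbfox2 and Celf1 rose, and the other 7 did not pass (16909 genes). The 2 of 10 called in atria stand beside 14.6% of all genes tested (7.95% higher and 6.62% lower in CUG960 mice), and the 3 of 10 in ventricles beside 9.94% of all genes (5.73% higher and 4.20% lower). At these numbers, neither share is a result about the regulators as a group. None of the 10 passed when a fold change of at least 1.5 was also asked, which 5.49% of genes passed in atria and 4.75% in ventricles. The groups did not overlap for 6 of the 10 in atria, where that held for 35.7% of genes, and for 5 of the 10 in ventricles, where it held for 31.2%. The median log2 fold change of the 10 was 0.06 in each chamber, and that of all genes was −0.01.

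**Figure D2:**
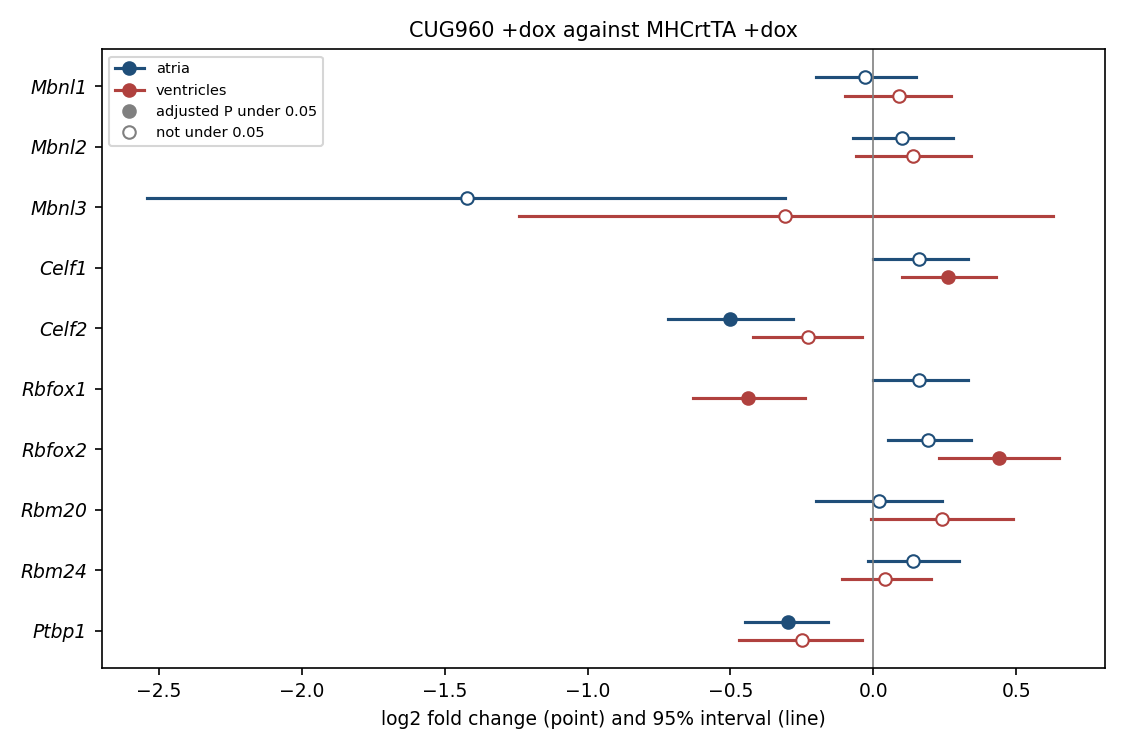
Log2 fold change of CUG960 +dox against MHCrtTA +dox (x axis) for each regulator in atria and ventricles, as a point with its 95% interval. Filled points passed an adjusted P value of 0.05: Celf2 (−0.50) and Ptbp1 (−0.30) in atria, and Rbfox1 (−0.44), Rbfox2 (0.44) and Celf1 (0.26) in ventricles.

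The muscleblind genes did not pass the test in either chamber. Mbnl1 (chr3:60472830-60629750, plus strand) had 149, 130 and 138 CPM in the control atria (V327, V333 and V334) and 126, 138 and 145 CPM in the CUG960 atria (V119, V120 and V123). The genotypes overlapped, with a log2 fold change of −0.03 (SE 0.08, 95% interval −0.20 to 0.15, adjusted P value = 0.837). In ventricles it had 155, 137 and 144 CPM in controls and 162, 142 and 158 CPM in CUG960 mice, a log2 fold change of 0.09 (SE 0.08, 95% interval −0.10 to 0.27, adjusted P value = 0.559).

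Mbnl2 (chr14:120275669-120431697, plus strand) was above its paralogue Mbnl1 per kilobase in all 4 groups, by either length. It had 213, 189 and 197 CPM in control atria and 196, 216 and 232 CPM in CUG960 atria, and 221, 198 and 231 CPM in control ventricles and 251, 217 and 249 CPM in CUG960 ventricles. The genotypes overlapped in both chambers. Its log2 fold change was 0.10 (95% interval −0.07 to 0.28) in atria and 0.14 (95% interval −0.06 to 0.34) in ventricles, with adjusted P values of 0.408 and 0.371. The intervals of both Mbnl1 and Mbnl2 leave room for changes of these sizes, so equal levels were not shown.

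The count ratio of Mbnl2 to Mbnl1 within a library does not depend on library scaling. It was 1.43, 1.46 and 1.42 in control atria and 1.56, 1.57 and 1.60 in CUG960 atria, so the groups did not overlap. The mean ratio was 1.10 times the control ratio, with P = 0.1 in an exact two-sided permutation test, the smallest P that 3 mice against 3 can give. In ventricles the ratio was 1.43, 1.45 and 1.61 in controls and 1.55, 1.53 and 1.58 in CUG960 mice, and the groups overlapped (exact permutation P = 0.400).

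Mbnl3 (chrX:51117269-51206532, minus strand), a muscleblind gene of muscle progenitors and placenta, was close to the floor. It had 19, 19 and 13 counts in the control atria and 7, 8 and 2 counts in the CUG960 atria. The CUG960 atria lay below all control atria, with a log2 fold change of −1.42 (SE 0.49, 95% interval −2.54 to −0.31), which did not pass adjustment (adjusted P value = 0.0899). In ventricles its counts were 16, 22 and 29 in controls and 35, 15 and 18 in CUG960 mice and overlapped (log2 fold change −0.31, adjusted P value = 0.698).

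Celf1 and Celf2 had opposite signs in both chambers. Celf1 (chr2:90940382-91019497, plus strand) encodes the CELF protein best known in DM1. It had 129, 116 and 125 CPM in control ventricles and 151, 142 and 152 CPM in CUG960 ventricles. All CUG960 ventricles lay above all control ventricles, and Celf1 rose by a log2 fold change of 0.26 (SE 0.07, adjusted P value = 0.0497). This call lay at the threshold. It was lost in each of the 6 fits without 1 mouse (log2 fold change 0.23 to 0.30, adjusted P values 0.0698 to 0.152, and 0.25 with 0.152 without V123), with RLE size factors (0.0505) and with upper quartile normalization (0.0501). In atria Celf1 had 155, 142 and 154 CPM in controls and 158, 165 and 183 CPM in CUG960 mice, which did not overlap either (log2 fold change 0.16, SE 0.07, adjusted P value = 0.167). At the protein level, the paper found no significant change of CELF1 in CUG960 +dox mice. It proposes that some of the induced mice had more CELF1 protein in atria.

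Celf2 (chr2:6539694-7509563, minus strand), which encodes a CELF protein of heart, brain and blood cells, fell in atria. It had 63.4, 56.9 and 62.2 CPM in control atria and 38.2, 41.9 and 49.3 CPM in CUG960 atria. The groups were separate, and the level in CUG960 atria was 0.708 times that of controls (log2 fold change −0.50, SE 0.10, adjusted P value = 0.0126). Without V120, 1 of the 6 mice, the adjusted P value was 0.0574 at a log2 fold change of −0.48, and the call held without each of the other 5. In ventricles Celf2 had 59.0, 49.2 and 56.3 CPM in controls and 48.2, 44.8 and 46.8 CPM in CUG960 mice. These did not overlap, but the difference did not pass adjustment (log2 fold change −0.23, SE 0.08, adjusted P value = 0.117, and −0.24 with 0.233 without V123). It passed without V333 (−0.30, adjusted P value = 0.0472).

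The ratio of Celf2 to Celf1 counts within a library compares the pair with each other. That it differed more between genotypes than either gene follows from their opposite signs and is no further evidence. It was 0.409, 0.400 and 0.404 in control atria and 0.242, 0.253 and 0.270 in CUG960 atria, a mean ratio 0.630 times that of controls. In ventricles it was 0.457, 0.422 and 0.449 in controls and 0.320, 0.315 and 0.308 in CUG960 mice, 0.710 times that of controls. No CUG960 library overlapped a control library of its chamber, and each exact two-sided permutation P was 0.1, the smallest possible. The summed level of the CELF pair was 211 ± 10.6 CPM in control and 212 ± 18.3 CPM in CUG960 atria, and 178 ± 11.5 CPM in control and 195 ± 6.73 CPM in CUG960 ventricles (SD, n = 3), and overlapped between genotypes in both chambers.

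Endothelial markers were also lower in the atria where Celf2 fell. Among all genes tested, 6.62% fell in atria and 4.20% in ventricles. Of 7 endothelial markers, 4 fell in atria (Pecam1, Cdh5, Tek and Tie1) and 3 fell in ventricles (Pecam1, Cdh5 and Tek), and none rose. Their summed level was 906 ± 102 CPM in control atria and 691 ± 59.7 CPM in CUG960 atria, and 822 ± 82.0 CPM in control ventricles and 619 ± 20.3 CPM in CUG960 ventricles (SD, n = 3). Pecam1, the most abundant of them over the 12 libraries and an adhesion molecule of endothelial cells, had a log2 fold change of −0.71 in atria (adjusted P value = 0.00431) and −0.53 in ventricles (adjusted P value = 0.00179, and −0.53 with 0.0112 without V123). No endothelial marker was at 0 in any group. The part of these cells in the Celf2 result was not tested.

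**Figure D3:**
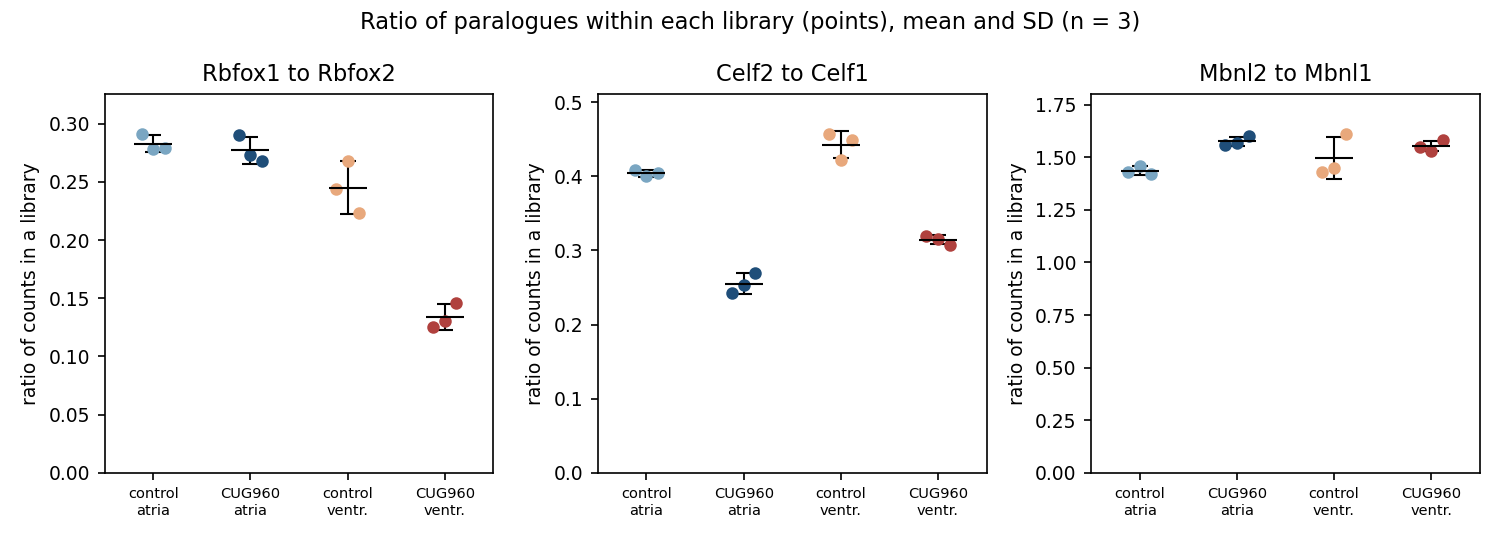
Ratio of counts of paralogues within each library (y axis, starting at 0), with points for the 12 libraries and the mean and SD of 3 mice in each group. The Rbfox1 to Rbfox2 ratio lies lowest in CUG960 ventricles (0.125 to 0.146), and the Celf2 to Celf1 ratio lies lower in CUG960 than in control libraries of both chambers.

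The RBFOX genes moved apart in ventricles. Rbfox1 (chr16:5885355-7411526, plus strand), the RBFOX gene of adult muscle and neurons, had 22.3, 23.5 and 22.4 CPM in control ventricles and 17.7, 15.7 and 17.0 CPM in CUG960 ventricles. The groups were separate, and Rbfox1 fell to 0.740 times the control level (log2 fold change −0.44, SE 0.09, adjusted P value = 0.0140). The call held in all 6 fits without 1 mouse, with adjusted P values of 0.0308 to 0.0493, and was −0.44 with 0.0437 without V123.

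In atria the point estimate of Rbfox1 had the other sign. It had 37.6, 34.6 and 34.5 CPM in control atria and 42.1, 36.9 and 40.6 CPM in CUG960 atria, which overlapped (log2 fold change 0.16, SE 0.07, adjusted P value = 0.157). The difference of the CUG960 effect between chambers, ventricles minus atria, was −0.60 on the log2 scale (SE 0.10, 95% interval −0.82 to −0.38, adjusted P value = 0.0134, edgeR interaction test over 12 libraries and 18327 genes). Rbfox1 was the only 1 of the 10 regulators to pass this test, beside 1.38% of all genes. The call was lost without V123 (adjusted P value = 0.0625), V333 (0.0862) or V334 (0.0549), at differences of −0.60, −0.55 and −0.59.

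Rbfox2 (chr15:77078990-77307004, minus strand), the RBFOX gene expressed most widely across tissues, rose in ventricles. It had 91.5, 88.0 and 101 CPM in control ventricles and 142, 121 and 117 CPM in CUG960 ventricles. V119 was the highest library and the groups did not overlap, with a log2 fold change of 0.44 (SE 0.09, adjusted P value = 0.0190). The adjusted P value was 0.0583 without V119 and 0.0776 without V327, at log2 fold changes of 0.35 and 0.43, and the fold change was 0.49 with 0.0300 without V123. In atria it had 129, 125 and 124 CPM in controls and 145, 135 and 152 CPM in CUG960 mice, which did not overlap and did not pass (log2 fold change 0.19, SE 0.06, adjusted P value = 0.0724). This atrial difference was called in 2 of 7 other settings, DESeq2 (adjusted P value = 0.0379) and total counts without TMM. The difference of the Rbfox2 effect between chambers did not pass (0.24, adjusted P value = 0.411).

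The ratio of Rbfox1 to Rbfox2 counts does not depend on library scaling and compares the pair with each other, not either gene with its own control level. It was 0.244, 0.268 and 0.223 in control ventricles and 0.125, 0.130 and 0.146 in CUG960 ventricles, 0.546 times that of controls, with no overlap and an exact two-sided permutation P of 0.1, the smallest possible. In atria it was 0.291, 0.278 and 0.279 in controls and 0.290, 0.273 and 0.268 in CUG960 mice, which overlapped (exact permutation P = 0.500). The summed level of the RBFOX pair was 116 ± 6.16 CPM in control ventricles and 143 ± 14 CPM in CUG960 ventricles, and 161 ± 4.68 CPM in control atria and 184 ± 10.3 CPM in CUG960 atria (SD, n = 3). The sum did not overlap between genotypes in either chamber, and Rbfox2 gave most of its counts.

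Rbm20 and Rbm24 did not pass the test in either chamber. Rbm20 (chr19:53677306-53867080, plus strand) had 308, 242 and 242 CPM in control atria and 273, 265 and 266 CPM in CUG960 atria, a log2 fold change of 0.02 (SE 0.10, adjusted P value = 0.902). V327 was above the other control atria. In ventricles it had 225, 164 and 200 CPM in controls and 247, 220 and 228 CPM in CUG960 mice, which overlapped between V327 and V120 (log2 fold change 0.24, SE 0.11, adjusted P value = 0.218). Rbm24 (chr13:46418434-46431095, plus strand) had 194, 167 and 174 CPM in control atria and 198, 197 and 195 CPM in CUG960 atria, which did not overlap (log2 fold change 0.14, SE 0.07, adjusted P value = 0.211). Its ventricular levels, 174, 173 and 181 CPM in controls and 189, 178 and 175 CPM in CUG960 mice, overlapped (log2 fold change 0.04, adjusted P value = 0.760).

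Ptbp1 (chr10:79854427-79864771, plus strand) fell in atria. It had 41.7, 45.3 and 44.6 CPM in control atria and 37.5, 35.2 and 33.9 CPM in CUG960 atria, with no overlap and a level 0.811 times that of controls (log2 fold change −0.30, SE 0.06, adjusted P value = 0.0183). The adjusted P value was 0.0638 without V120, 0.0757 without V333 and 0.0688 without V334, at log2 fold changes of −0.30, −0.28 and −0.29. In ventricles it had 38.7, 30.7 and 35.1 CPM in controls and 30.2, 28.1 and 29.2 CPM in CUG960 mice, which did not overlap and did not pass (log2 fold change −0.25, SE 0.10, adjusted P value = 0.130, and −0.26 with 0.245 without V123). The Ptbp1 counts are less certain than the others, because 11.5% of the 31-base words of its transcripts also occur in transcripts of another gene, mostly the pseudogene Gm4900, against at most 0.95% for the other 9 regulators. Gm4900 is not among the gene symbols of the count table, and how its reads were assigned is not known here. Plppr3 and E130317F20Rik overlap Ptbp1 on the opposite strand and had 1.07 ± 0.0979 CPM and 3.56 ± 0.497 CPM in control atria (SD, n = 3). Celf2, Mbnl2, Rbfox2 and Rbm20 also have antisense genes within them in the annotation. The paper names a stranded library protocol, but whether the counting used strand is not given. Without it, reads of a gene and its antisense partner cannot be told apart.

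The next question was how the regulators differed between chambers of the same genotype. In control mice, Rbfox1, Rbfox2, Rbm20, Ptbp1 and Celf1 were higher in atria than in ventricles, 5 of the 10 beside 56.0% of all genes (28.7% higher in atria and 27.3% higher in ventricles), and no regulator was called higher in ventricles (edgeR, 12 libraries, 18327 genes). Rbfox1 was 1.56-fold higher in atria (log2 fold change 0.64, SE 0.07, adjusted P value = 6.1e-06), Rbfox2 1.35-fold (0.43, adjusted P value = 5.1e-04), Rbm20 1.34-fold (0.43, adjusted P value = 0.00648), Ptbp1 1.26-fold (0.33, adjusted P value = 0.00353) and Celf1 1.22-fold (0.28, adjusted P value = 0.00353). These 5 calls held in each of the 6 fits without 1 mouse. Mbnl1 (−0.06), Mbnl2 (−0.12), Celf2 (0.15) and Rbm24 (0.02) did not pass, and Mbnl3 (−0.95, adjusted P value = 0.0830) did not either.

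In CUG960 mice the chambers were farther apart for Rbfox1, at 2.37-fold higher in atria (log2 fold change 1.24, SE 0.07, adjusted P value = 1.8e-08), and 4 of the 10 were called beside 54.3% of all genes (27.4% higher in atria and 26.9% higher in ventricles). Ptbp1 (0.29, adjusted P value = 0.00949) and Celf1 (0.18, adjusted P value = 0.0377) were higher in atria, and Mbnl3 was lower (−2.06, adjusted P value = 0.00313). Rbfox2 (0.19, adjusted P value = 0.0641) and Rbm20 (0.21, adjusted P value = 0.137) did not pass here. With the mouse as a block, Rbm20 passed (adjusted P value = 0.0330), and no other call changed in this comparison. Over 8 other settings, the block included and the fold change limits left out, Rbfox2 and Rbm20 each passed in 3 and Celf1 in 6. The Ptbp1 call was lost without V119 (0.0618) and V120 (0.0647), and the Celf1 call without V120 (0.146), V123 (0.184), V327 (0.0564) or V334 (0.0683). The chamber and genotype comparisons share libraries and are not independent of each other. Their values also depend on library scaling: with total counts in place of TMM, the median of all genes moved by 0.45 in controls and 0.38 in CUG960 mice on the log2 scale, and Mbnl1 and Mbnl2 were then higher in atria.

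**Figure D4:**
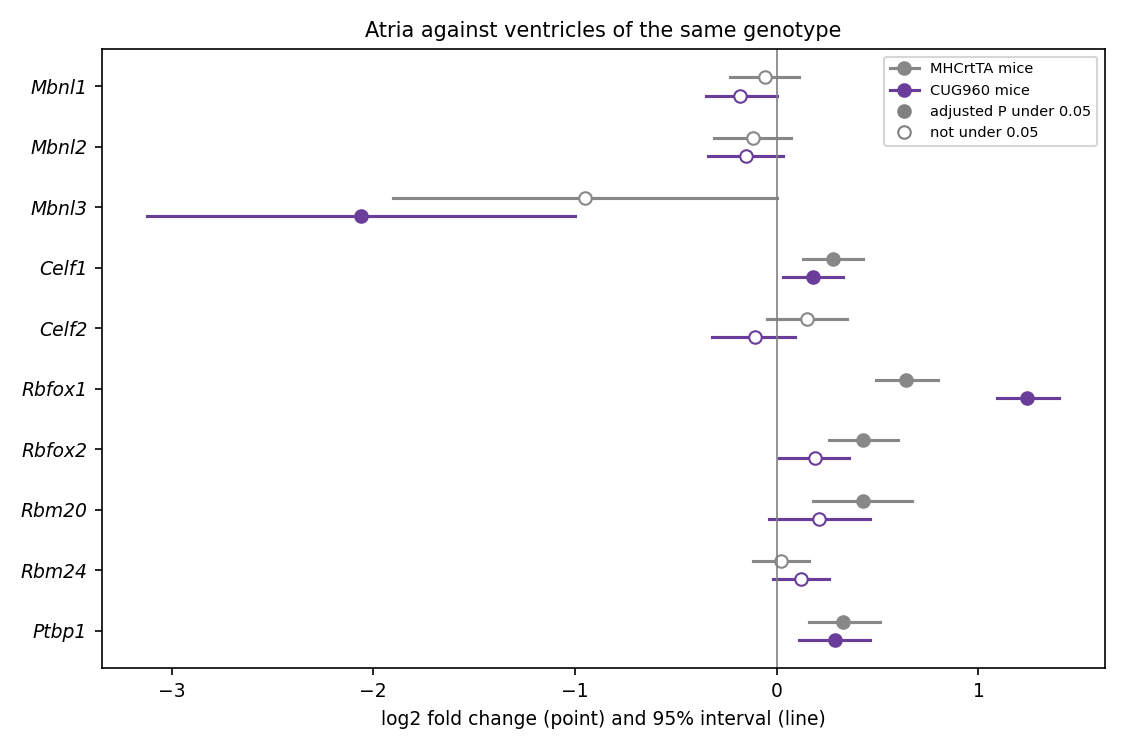
Log2 fold change of atria against ventricles (x axis) for each regulator in MHCrtTA and CUG960 mice, as a point with its 95% interval. Filled points passed an adjusted P value of 0.05, and the 2 Rbfox1 intervals (0.49 to 0.80 in controls and 1.09 to 1.40 in CUG960 mice) do not overlap.

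Of the other genes of these families (Celf3, Celf4, Celf5, Celf6, Rbfox3, Ptbp2 and Ptbp3), 2 of 5 tested fell in atria, where 6.62% of all genes fell, and 0 of 4 tested were called in ventricles, where 9.94% of all genes were called. Ptbp3, a close relative of Ptbp1, had a log2 fold change of −0.35 in atria (adjusted P value = 0.0159, lost without V327 at 0.0515 and without V334 at 0.0574) and −0.36 in ventricles (adjusted P value = 0.0634). Celf4, a CELF gene mainly of neurons, fell by 0.97 on the log2 scale in atria (SE 0.25, adjusted P value = 0.0368), from 1.51 ± 0.418 to 0.771 ± 0.161 CPM, and passed in only 1 of the 6 fits without 1 mouse. Ptbp2 was at 0.03 in atria and 0.11 in ventricles and did not pass. The list's median was −0.63 in atria and 0.11 in ventricles, beside −0.01 for all genes in each. The atrial median is the value of Celf5, which averaged 0.142 CPM and did not pass (adjusted P value = 0.345), and Celf3 averaged 0.188 CPM and did not pass either, so this median rests on genes near the floor.

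Among 18 other tissue-restricted splicing regulators, 1 of 15 tested rose in atria, and 1 rose and 3 fell of 13 tested in ventricles, beside 14.6% and 9.94% of all genes called in either direction. Khdrbs3, which encodes the STAR family protein SLM2, rose in both chambers. It had 23.1, 24.7 and 24.5 CPM in control atria and 36.2, 37.4 and 37.3 CPM in CUG960 atria, with no overlap (log2 fold change 0.62, SE 0.06, adjusted P value = 5.9e-04). In ventricles its log2 fold change was 0.34 (adjusted P value = 0.0335), a call lost in 5 of the 6 fits without 1 mouse, and 0.31 with 0.114 without V123. Nova2, a neuronal and endothelial splicing factor, fell by 0.54 on the log2 scale in ventricles (adjusted P value = 0.0388, and 0.0703 without V123) and passed only without V333 in the fits without 1 mouse. Rbpms2, an RNA-binding protein of heart and smooth muscle, fell by 0.42 (adjusted P value = 0.0205, and 0.0772 without V123) and passed without V120 or V334 but not without the other 4 mice. Esrp2, an epithelial splicing factor, was the third (−1.56, adjusted P value = 0.0439), but averaged 0.144 CPM, below the minimum set for naming genes. The list's median was −0.03 in atria and 0.03 in ventricles.

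Of 18 partners and kinases of the regulators, 2 rose and 1 fell in atria, and 1 rose and 1 fell in ventricles, with all 18 tested in each, again beside 14.6% and 9.94% of all genes called. Akt1, a kinase that can phosphorylate CELF1, rose in both. It had 152, 156 and 152 CPM in control atria and 254, 240 and 236 CPM in CUG960 atria (log2 fold change 0.67, SE 0.06, adjusted P value = 4.3e-04), and 146, 151 and 148 CPM in control ventricles and 241, 235 and 227 CPM in CUG960 ventricles (0.66, SE 0.07, adjusted P value = 5.3e-04). All CUG960 libraries lay above all control libraries of their chamber, and the call held in each fit without 1 mouse. In atria Hnrnpa1, a general splicing repressor, rose (0.36, adjusted P value = 0.0145, lost without V120, V333 or V334 at 0.0530, 0.0640 and 0.0516) and Hnrnph1, which binds G-rich exons, fell (−0.41, adjusted P value = 0.00633). In ventricles Raver2, a partner of PTB proteins, fell (−0.42, adjusted P value = 0.0436), and this was lost in each fit without 1 mouse, with 0.0874 without V123. The kinase genes Gsk3b, Prkca and Prkcb were not called in either chamber. The medians of the list were −0.05 and −0.03.

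Gene-level counts of known splicing targets were read next, bearing in mind that these measure the level of the transcript and not the inclusion of an exon. Of 20 targets of MBNL and CELF proteins, 5 fell and 0 rose in atria, and 2 fell and 0 rose in ventricles, with medians of −0.12 and −0.16. Of all genes, 6.62% fell and 7.95% rose in atria, and 4.20% fell and 5.73% rose in ventricles. The counts were not tested against these shares, and none of them is a result about the targets as a group. Clcn1, the muscle chloride channel whose missplicing causes myotonia in DM1, had 11.4, 12.5 and 12 CPM in control atria and 2.58, 2.05 and 2.82 CPM in CUG960 atria. The groups were far apart, with a log2 fold change of −2.27 (SE 0.13, adjusted P value = 6.2e-05). The others that fell in atria were Ryr2 and Fn1, described next, Tnnt3, a fast skeletal troponin T at an average of only 0.456 CPM (−2.05, adjusted P value = 0.00999), and Spag9, a scaffold of stress kinases (−0.45, adjusted P value = 0.0140). In ventricles, Clcn1 also fell, from 0.663 ± 0.0973 to 0.212 ± 0.0731 CPM (SD, n = 3, adjusted P value = 0.0161), a level below the minimum set for naming genes.

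Ryr2, the calcium release channel of the sarcoplasmic reticulum and a target on both target lists, fell in both chambers. It had 815, 758 and 796 CPM in control atria and 453, 516 and 669 CPM in CUG960 atria (log2 fold change −0.53, adjusted P value = 0.0298), a call that held in only 1 of the 6 fits without 1 mouse. In ventricles it had 870, 650 and 945 CPM in controls and 539, 470 and 536 CPM in CUG960 mice (−0.67, adjusted P value = 0.0148), with no overlap, and −0.70 with 0.0367 without V123, and the call was lost without V120 (0.0637) or V327 (0.0584). Fn1, the matrix protein fibronectin, fell in atria (−1.09, adjusted P value = 0.0250, lost without V119, V120 or V123 at 0.0722, 0.0935 and 0.0659). In ventricles Fn1 was at −0.44 (adjusted P value = 0.101), and all CUG960 ventricles lay below all control ventricles. Fibroblast markers had a median log2 fold change of −0.33 in atria and 0.01 in ventricles. In atria 6.62% of all genes fell, and in ventricles 9.94% were called. Of the 8 fibroblast markers, 3 fell in atria (Col1a2, Pdgfra and Postn) and 0 were called in ventricles. Their sum was 2485 ± 209 CPM in control atria and 2076 ± 169 CPM in CUG960 atria (SD, n = 3), with Dcn, the most abundant, at 1177 ± 131 and 1039 ± 91.9 CPM and no marker at 0, and their part in the Fn1 result was not tested.

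Of 15 targets of RBM20, 2 rose and 3 fell in atria, and 1 rose and 1 fell in ventricles, with a median of −0.01 in each, beside 14.6% and 9.94% of all genes called. Mlip, a cardiac nuclear envelope protein, rose in atria (0.53, adjusted P value = 0.00331), as did Trdn, a junctional protein that anchors the calcium release channel (0.26, adjusted P value = 0.0329, lost in each fit without 1 mouse). Pdlim3, a Z-disc protein, rose in ventricles (0.74, adjusted P value = 0.00338, and 0.69 with 0.0144 without V123). Enah, an actin regulator, had 194, 207 and 225 CPM in control atria and 129, 136 and 140 CPM in CUG960 atria, with no overlap (−0.63, adjusted P value = 0.00142). In ventricles Enah overlapped between genotypes (−0.01, adjusted P value = 0.945). Sh3kbp1, an endocytic adaptor, fell in atria (−0.43, adjusted P value = 0.0184, lost without V119 at 0.0553 and without V327 at 0.0566) and was at 0.18 in ventricles (adjusted P value = 0.189).

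Other cell types were followed by marker lists. The counts of calls in these lists stand beside 6.62% of all genes lower and 7.95% higher in CUG960 atria. In ventricles these shares were 4.20% and 5.73%. The marker counts were not tested against them. Macrophage and leukocyte markers (8 genes) had no call in either chamber and summed to 371 ± 180 CPM in control atria, where V334 had 578 CPM against 287 CPM in V327 and 249 CPM in V333, and to 297 ± 24.3 CPM in CUG960 atria (SD, n = 3). Of the smooth muscle and pericyte markers, 5 of 7 fell in ventricles (Rgs5, Myh11, Tagln, Pdgfrb and Kcnj8), with a sum of 826 ± 29.5 CPM in controls and 648 ± 19.8 CPM in CUG960 mice, and Rgs5, the most abundant, at 489 ± 18.7 and 349 ± 34.2 CPM. Of the same 7 genes, Tagln rose and Pdgfrb fell in atria, the latter at the threshold (adjusted P value = 0.0488). Among adipocyte markers 2 of 5 fell in ventricles (Plin1 and Fabp4), where Fabp4, the most abundant and also made by endothelial cells, was at 579 ± 74.3 CPM in controls and 381 ± 42.0 CPM in CUG960 mice, and 0 of 5 were called in atria.

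Of the markers of cardiomyocytes of both chambers, 2 of 8 rose (Myh6 and Pln) and 2 fell (Tnnc1 and Ryr2) in atria. In ventricles Mybpc3 rose, near the threshold (adjusted P value = 0.0436), and Ryr2 fell. Myh6, the most abundant of them and the gene whose promoter drives rtTA, was at 25509 ± 379 CPM in control atria and 29800 ± 550 CPM in CUG960 atria (log2 fold change 0.22, adjusted P value = 0.0393), a call lost in 5 of the 6 fits without 1 mouse. Among atrial markers, Nppa, the natriuretic peptide gene and the most abundant, fell in atria (−0.42, adjusted P value = 0.00830) and rose in ventricles (1.3, adjusted P value = 0.0314, and 1.31 with 0.0631 without V123). The ventricular call held without V119 or V334 and was lost without each of the other 4 mice. The atrial call held in all 6 fits without 1 mouse and was lost in 1 of 7 other settings. Of the other 6 atrial markers, none was called in atria and Bmp10 fell in ventricles. Of the ventricular markers, 5 were tested in atria and 6 in ventricles. Hey2 fell in both chambers (−0.67 in atria and −0.52 in ventricles), with an adjusted P value of 0.0494 in each, at the threshold. Hey2 was not followed in the fits without 1 mouse. Irx4 rose in ventricles (0.36, adjusted P value = 0.0303, lost in 5 of the 6 fits without 1 mouse). Skeletal muscle markers were led by Acta1, at 767 ± 111 CPM in control and 379 ± 163 CPM in CUG960 ventricles, with no call there, and Tnnt3 fell in atria. The part of these cell types in the results on the regulators was not tested.

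The genes most like each regulator were listed by Pearson's r of log2 CPM over the 12 libraries, among 13111 other genes that averaged 1 CPM or more. These libraries share 4 groups and 6 mice, so r largely follows the group means and is a description. For Rbfox1 they were Ctnnal1 (r = 0.990) and Ces1d (0.988), and for Rbfox2 Usp54 (0.973) and Arhgef17 (0.971). For Celf1 they were Paqr9 (0.976) and Ddhd1 (0.961), and for Celf2 Peg13 (0.956) and Edn1 (0.937), the last being endothelin 1. For Ptbp1 they were Cachd1 (0.977) and Crebl2 (0.961), for Rbm20 B4galt1 (0.949) and Zfp251 (0.937), and for Rbm24 Eif4b (0.915) and Cir1 (0.900). For Mbnl2 they were Rabep1 (0.944) and Rab5b (0.939), and for Mbnl1 Ifit1bl2 (0.890) and Atr (0.873), the lowest values of the 9 regulators above 1 CPM. No regulator had another of the 10 among its 2 nearest genes.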

How the data were processed

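RNA was isolated from atria and ventricles of 6 mice, and poly(A) libraries were sequenced by the authors, who aligned the reads to GRCm38 (mm10) and estimated expected counts of each gene with RSEM 1.3.1 (submitters' processing notes). The deposited table holds these expected counts as whole numbers, 51826 entries by 12 libraries, without scaling or filters. Replicates are separate mice.

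Counts were tested with edgeR 4.0.16 in R 4.3.3 (filterByExpr, TMM, glmQLFit, glmQLFTest, Benjamini-Hochberg). Genotypes were compared within a chamber over 6 libraries, and the chamber contrasts and the interaction came from a fit of 4 group means over 12 libraries. A call is an adjusted P value under 0.05. As a second rule, the fold change had to reach 1.5. The paper states its limit of 1.5 for the fold change itself in its results, but on the log2 scale in its methods. Calls were therefore counted with each limit. CPM are scaled by TMM library sizes over 12 libraries, and log2 CPM used a prior count of 2. The steps were tested on simulated data. Precision is limited by 3 mice per group more than by depth, except for Mbnl3. Whether strand was used in counting is not given in the sources used here.

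Atria and ventricles of a mouse are paired by animal. Deviations from the group means correlated across genes at r of 0.030 to 0.135 between both chambers of a mouse, and at −0.141 to 0.054 between chambers of different mice. Replicate pairs differed far beyond counting noise (chi-square per degree of freedom 41.3 to 122).

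The regulators and all lists were chosen with earlier results of these data known. From each related and target list, genes called in a genotype comparison were named, at most the 3 largest changes per list, chamber and direction with a mean of at least 1 CPM. Markers named are the most abundant gene of a list and the genes that check the tissue label. The other markers, Ptbp2, Gsk3b, Prkca, Prkcb, Esrp2, Tnnt3, Spag9, Plppr3, E130317F20Rik, Dmpk and ventricular Clcn1 do not follow from it and were chosen with their values known. The list of neuronal markers is not reported here. Coordinates and transcript lengths are those of GENCODE M21, a later release than the authors' annotation.

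Alternatives were DESeq2 1.42.0, RLE and upper quartile normalization, other filters, both fold change limits, 12 or 6 libraries in the fit, the mouse as a block, and each mouse left out. Tables were made with pandas 2.3.3 and numpy 2.4.6 under Python 3.11.15, and figures with matplotlib 3.10.9.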

Additional observations from a re-analysis of the deposited data

Results flagged for a closer look

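Rbfox1 was flagged because its CUG960 effect differed between chambers in the interaction test, by −0.60 on the log2 scale, ventricles minus atria (edgeR adjusted P value = 0.0134), with log2 fold changes of −0.44 in ventricles and 0.16 in atria. The CUG960 ventricles were lower than the controls in 3 of 3 mice, and 2 of 3 CUG960 atria were above all control atria.

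Enah and Sh3kbp1, both on the list of RBM20 targets, were flagged by the same test. The difference was 0.61 for Enah (adjusted P value = 0.0254) and 0.61 for Sh3kbp1 (adjusted P value = 0.0307). Sh3kbp1 had 53.4, 45.1 and 57.4 CPM in CUG960 atria against 73.5, 67.6 and 68.8 CPM in control atria, and 146, 126 and 137 CPM in CUG960 ventricles against 124, 122 and 114 CPM in control ventricles, so that 3 of 3 CUG960 mice lay below the controls in atria and above them in ventricles. Each of the 2 calls was lost in 5 of the 6 fits without 1 mouse.

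The same test flagged 3 markers. The difference was 1.72 for Nppa, an atrial marker (adjusted P value = 0.0494, lost in 4 of the 6 fits without 1 mouse), and −4.10 for Bmp10, another atrial marker (adjusted P value = 0.00208). Bmp10 had 2.43, 2.39 and 3.75 CPM in control ventricles and 0.0343, 0.275 and 0.208 CPM in CUG960 ventricles. It averaged 1813 CPM in the atrial libraries, and the part of atrial tissue in its ventricular values was not tested. The results for Bmp10 and Tagln were not followed in the fits without 1 mouse or in other settings. For Tagln, a smooth muscle marker, the difference was −1.85 (adjusted P value = 0.0445), with CUG960 libraries above all controls in atria and below all controls in ventricles.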

How the results depend on the processing

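Of 766 alternative fold changes of the regulators, 688 kept their direction and their side of the threshold, 50 lost a call, 14 gained one and 14 changed sign. The sign changes were all near 0 or came from total counts without TMM, a setting chosen after seeing the data. In atria, Mbnl1 was 0.0110 with total counts and ran from −0.0828 to 0.0262 without 1 mouse, and Rbm20 from −0.0362 to 0.1400. The chamber difference of the effect ran from −0.0714 to 0.1011 for Mbnl2 and from −0.0467 to 0.1651 for Ptbp1. Between chambers of controls, Rbm24 ran from −0.0519 to 0.0574, and with total counts Mbnl1 was 0.39 and Mbnl2 0.33 in controls, and Mbnl1 0.20, Mbnl2 0.23 and Celf2 0.27 in CUG960 mice.

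With a fold change of at least 1.5, 969 genes and 0 regulators were called in atria, 804 and 0 in ventricles, 6420 and 1 between chambers of controls, and 6074 and 2 between chambers of CUG960 mice. With a limit of 1.5 on the log2 scale, the counts were 216 and 0, 199 and 0, 2462 and 0, and 2361 and 1, and 69 and 0 for the difference of the effect. For the genotype comparisons in atria and ventricles, the log2 limit gave gene counts closer to the paper's than the fold change limit did. DESeq2 called 2572 genes in ventricles (1680 with edgeR) and 660 for the difference of the effect (253 with edgeR). Total counts called 9 and 10 regulators between chambers of controls and CUG960 mice, and raised the share of higher calls from 54.6% to 66% in atria, from 57.7% to 81.6% in ventricles, from 50.2% to 65.5% for the difference of the effect, from 51.2% to 81.7% in controls and from 50.4% to 79.5% in CUG960 mice.

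Leaving out 1 mouse gave 1235 to 2584 genes and 0 to 2 regulators in atria, 784 to 1347 and 1 to 3 in ventricles, 74 to 131 and 0 to 1 for the difference of the effect, 8176 to 10216 and 5 between chambers of controls, and 8199 to 9911 and 2 to 4 between chambers of CUG960 mice. The causes were not tested. With the mouse as a block, the Rbfox1 call on the difference of the effect held. Besides Rbm20 between chambers of CUG960 mice, the block changed no other call on the regulators. The other genes followed were those called from the related and target lists with at least 1 CPM, and Pecam1, Nppa, Irx4 and Myh6 where called. Of their 450 alternative fold changes, 321 kept their call, 129 lost it and 0 changed sign. As all were called to begin with, none could gain a call and a change of sign was unlikely. The remaining markers and the genes named below 1 CPM were not followed.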

Other observations

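The CUG960 and control libraries of 1 chamber did not overlap for Akt1 in either chamber, with 153 ± 2.77 CPM in control atria, 243 ± 9.38 CPM in CUG960 atria, 148 ± 2.29 CPM in control ventricles and 234 ± 6.87 CPM in CUG960 ventricles (SD, n = 3). The difference of its effect between chambers was −0.01 on the log2 scale (adjusted P value = 0.979).

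Mouse Dmpk, the gene whose human counterpart supplies the transgene, had 439 ± 7.24 CPM in control atria, 472 ± 30.1 CPM in CUG960 atria, 575 ± 30.3 CPM in control ventricles and 669 ± 80.0 CPM in CUG960 ventricles (SD, n = 3). Whether any read of the human transgene was counted there was not tested.

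Mitochondrial transcripts held 10.9% to 12.2% of counts in the atrial libraries, and 15.3% to 20.5% in the ventricular libraries. In ventricles the share was 20.5%, 19.6% and 20.5% in controls and 18.4%, 15.3% and 17.3% in CUG960 mice.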
